A study of Mus musculus with 2 samples.

Results

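The renin-angiotensin genes described here are the 7 transcripts Agtr1a, Agtr1b, Agtr2, Agtrap, Ace, Atp6ap2 and Lnpep, chosen by name for their roles in angiotensin formation and reception out of 27031 genes in the count table. In this system renin, which the prorenin receptor encoded by Atp6ap2 can bind at cell surfaces, cuts angiotensinogen, and angiotensin-converting enzyme (Ace) then trims the product to angiotensin II. Angiotensin II acts mainly through the type 1 receptor, which mice carry as the gene pair Agtr1a and Agtr1b, while the type 2 receptor (Agtr2) often has opposing effects, Agtrap binds the type 1 receptor and promotes its internalization, and Lnpep is the aminopeptidase known as the angiotensin IV receptor. Telmisartan is a blocker of the type 1 receptor and a partial agonist of PPARγ.

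The cells were live CD45+ leukocytes sorted from MC38 colorectal tumors that grew under the skin of young adult female C57BL/6 mice. The control group received vehicle and the other group telmisartan, both by daily intragastric gavage until harvest. Within each group the cells of several mice were pooled, the control pool was marked with Sample Tag 1 and the telmisartan pool with Sample Tag 2, and both pools went into 1 BD Rhapsody capture. The sequenced tables shared 20726 putative cells. After tag assignment, quality limits and doublet removal, 4535 control cells (41591125 UMIs, unique molecular identifiers that each count 1 captured transcript) and 4434 telmisartan cells (30921742 UMIs) remained. Median depth was 8689 UMIs per control cell and 6357.5 UMIs per telmisartan cell, and 41% of tagged control cells against 52.6% of tagged telmisartan cells had lain above the mitochondrial limit. Because each group was 1 pool, no difference between groups has a replicate check, no test was made, and all intervals are exact 95% intervals for counting error only. For a count of 0 cells the share it allows is given as 3 cells of the total, which is not the bound of such an interval.

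Clusters named from markers gave 8048 macrophage-like cells (4049 control, 3999 telmisartan), 664 dendritic-like cells (366 and 298), 185 T-like cells (72 and 113) and 72 neutrophil-like cells (48 and 24). Their median depths were 7561, 6959.5, 3286 and 1769 UMIs. Csf1r, the receptor for macrophage colony-stimulating factor, was detected in 88.0% of cells named macrophage-like and 23.8% of those named T-like, and the T cell receptor component Cd3e in 0.857% and 77.3%. The macrophage-like class divided into 7 subclusters that are called by number and leading genes: 1 (Tnfsf15, Ereg), 2 (Ccl24, Cxcl9), 3 (Gas6, Igf1), 4 (Ifit1, Rsad2), 5 (Serpinb2, Hmox1), 6 (Kif20a, Ccnb1, genes of mitosis) and 7 (Mcm2, Cdc6, genes of DNA replication). Subcluster 4 was shallow, with a median of 2416 UMIs. The groups differed in make-up: subcluster 2 held 31.6% of control and 8.40% of telmisartan macrophage-like cells. Subcluster 1 held 17.2% and 28.8%, and subcluster 4 held 9.29% and 18.7%.

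On the renin side, Atp6ap2 was widely detected and differed little between the groups. The gene lies on chromosome X at 12587801 to 12617049 (GRCm38, plus strand) and encodes a protein that binds prorenin and is also an accessory subunit of the vacuolar proton pump (V-ATPase). Over all kept cells it had 16077 UMIs in 5815 cells. Its level, in UMIs per 1000000 UMIs of the class (CPM), was 278 in neutrophil-like cells (199 to 379, from 40 UMIs), 224 in macrophage-like cells (220 to 227), 215 in dendritic-like cells (202 to 228) and 91.0 in T-like cells (72.2 to 113). The intervals of the first 3 classes overlapped and T-like cells stood below them, and they had the lowest value in both groups, although in control their interval overlapped that of neutrophil-like cells. A UMI was found in 66.2% of macrophage-like cells and in 27.6% of T-like cells, and after every cell was thinned to 1000 UMIs in 17.2% (16.4% to 18.0%) and 5.85% (2.84% to 10.5%). T-like cells also carried the summed macrophage markers (11 genes, led by Lyz2) at 27.2% of the macrophage-like level, beside 40.6% for Atp6ap2, and the part of macrophage RNA in the T-like value was not tested.

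Among macrophage subclusters, with both groups together, Atp6ap2 was highest in the mitotic subcluster 6 at 255 CPM (245 to 266) and in subcluster 3 at 253 CPM (245 to 262). Subclusters 1, 2 and 7 followed at 218, 217 and 212 CPM with overlapping intervals, below the first pair. Subclusters 5 and 4 were lowest at 171 and 167 CPM, so the range over the 7 was 1.53-fold. Subclusters 3 and 6 were the highest pair and subclusters 4 and 5 the lowest pair in each group on its own. In dendritic-like cells of both groups together the level ran from 103 CPM (78.9 to 131) in the mature subcluster 3 (Fscn1, Ccr7) to 256 CPM (230 to 284) in subcluster 2 (Ear2, Hr), a subcluster with the epithelial-list marker Epcam and none of the dendritic markers among its 10 leading genes. Within T-like cells the Foxp3 subcluster 3 had 147 CPM (109 to 194), above the 54.8 CPM (34.7 to 82.2) of the cytotoxic subcluster 1 (Gzmc, Prf1), although within telmisartan the intervals of both overlapped.

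In macrophage-like cells Atp6ap2 stood at 229 CPM in control (8747 UMIs) and 216 CPM in telmisartan (6137 UMIs), a log2 ratio of −0.08 (−0.13 to −0.04). Of the 11073 genes with at least 100 UMIs in this class, 43.9% had a lower log2 ratio, so the value lies near the middle of all genes, whose median was −0.05. By subcluster the ratio was −0.26 (−0.50 to −0.03) in subcluster 7 and −0.19 in subclusters 2 and 3, with intervals below 0. In subcluster 5 it was 0.24 (0.04 to 0.45). It was lower in 5 of 7 subclusters and higher in 2, and the difference between them was not tested. Dendritic-like subclusters 1, 2 and 4, which had at least 100 UMIs, gave 0.19, −0.04 and −0.20, each with an interval that included 0. In neutrophil-like cells 19 control and 21 telmisartan UMIs gave 1.18 (0.21 to 2.15), and 9 of the 21 UMIs came from 1 cell.

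The remaining genes of the renin side were nearly undetected in macrophage-like cells. Renin itself (Ren1) had 0 UMIs and angiotensinogen (Agt) 4 UMIs, 2 in each group. Of the 3 genes listed for this side only Atp6ap2 had 100 UMIs, so its −0.08 is also the list's median. The V-ATPase subunits, fixed as a list of 14 genes beside Atp6ap2, all had 100 UMIs, and their median log2 ratio was 0.04. Of them 0 lay past 1.5-fold, beside 4.78% of all genes past it higher and 2.23% lower. Atp6v0e was the most abundant control transcript of this list (299 CPM in control, 271 CPM in telmisartan). Over the 16 rebuilt clusters the level of Atp6ap2 had a positive Pearson correlation with 14 of 14 V-ATPase subunits (median 0.61, against −0.05 for all genes compared). Among the 5 genes most like it out of 10303 were Atp6v1g1 (0.94), Nfam1 (0.93), Lpcat2 (0.92) and Lamp2 (0.92). These correlations, and those given for the other members, are descriptions over clusters with both groups pooled that come from 1 capture and differ in depth and in the share of each group.

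Ace, the peptidase that makes angiotensin II, was rare. The gene lies on chromosome 11 at 105967945 to 105989964 (plus strand). The antisense gene Gm11651 overlaps it and had 0 UMIs in kept cells. Ace had 58 UMIs in 40 of 8969 kept cells. Of these cells 30 had 1 UMI, 6 had 2 and 4 had 4. The class levels were 0.827 CPM (0.623 to 1.08) in macrophage-like cells and 0.602 CPM (0.124 to 1.76) in dendritic-like cells. Thinned to 500 UMIs per cell, the macrophage-like level was 1.49 CPM in 1 random draw and 2.00 CPM as the mean over all possible draws, added after seeing the data, both outside the interval. In T-like cells Ace had 0 UMIs in 185 cells, which allows a share of up to 1.62%, and in neutrophil-like cells 0 in 72, which allows up to 4.17%. The share of macrophage-like cells with a UMI, 0.460% at a median depth of 7561 UMIs, lies below these limits, and below the 0.857% of macrophage-like cells with a UMI of Cd3e. For the cells with 1 UMI, free RNA and expression cannot be told apart.

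By UMIs the shallow macrophage subcluster 4 came first at 4.12 CPM, from 15 UMIs in 6 cells, and subcluster 5 followed at 1.87 CPM. UMIs of 1 cell are not independent, so intervals on these levels are too narrow. The share of cells with a UMI avoids this but depends on depth. That share was 0.619% (0.297% to 1.14%) in subcluster 2, 0.534% (0.196% to 1.16%) in subcluster 4, 0.511% in subcluster 5, 0.433% in subcluster 1, 0.396% in subcluster 3 and 0.282% (0.0341% to 1.01%) in subcluster 6, with 0 of 258 cells in subcluster 7. The intervals overlapped, so no difference in the share of cells with Ace was detectable among these subclusters. These shares were not adjusted for depth, and median depth was 2416 UMIs in subcluster 4, 8571.5 in subcluster 2 and 13257 in subcluster 6. Cells with an Ace UMI had 17824 CPM (17350 to 18308) of macrophage markers. The other kept cells, of all classes, had 17385 CPM, and macrophage-like cells as a whole had 18623 CPM. Classical monocyte genes stood at 1862 CPM (1711 to 2023) in cells with Ace, 1383 CPM in the others and 1437 CPM in macrophage-like cells as a whole. Nonclassical monocyte genes stood at 914 CPM (810 to 1029) in cells with Ace against 848 CPM in the others. That sum is mostly Nr4a1, with 18610 of 27865 control and 22281 of 29009 telmisartan UMIs in macrophage-like cells. The 10 cells with at least 2 Ace UMIs held 28 Ace UMIs. They also held 21 UMIs of nonclassical genes other than Nr4a1, Itgal and Cx3cr1. Whether that exceeds the level in other cells was not tested. Endothelial markers, 3 of 4 detected, had 17 UMIs in all cells with Ace, 56.5 CPM (32.9 to 90.5) against 25.7 CPM in the others. In cells with Ace, T cell, mast cell, pericyte and epithelial markers had 0 UMIs. Pecam1, a gene of endothelial cells, was also counted in 808 macrophage-like cells (1237 UMIs), and its share of the endothelial sum was not tested. Median depth was 6731 UMIs in cells with Ace and 7371 UMIs in the others. Whether these markers have a part in the Ace signal, in cells that had been sorted as CD45+ leukocytes, was not tested.

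Between the groups Ace had 38 control and 17 telmisartan UMIs in macrophage-like cells, 0.996 and 0.600 CPM, a log2 ratio of −0.73 (−1.65 to 0.13), so no difference was detectable at this depth. Few cells carried much of the control count. Subcluster 4 had 12 control UMIs in 4 cells and 3 telmisartan UMIs in 2 cells (−2.88, −5.34 to −0.99), and without that subcluster the class ratio was −0.39. For the reason given above, that interval is too narrow. In subcluster 2 the counts were 14 and 0, with an upper limit of 0.43 on the log2 ratio. The 3 dendritic-like UMIs were all in telmisartan cells of dendritic-like subcluster 2.

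Of the 5 listed angiotensin-forming peptidases, Ace among them, only Ctsd, cathepsin D, which can release angiotensin I from angiotensinogen as renin does, had at least 100 UMIs, at 309 CPM in control and 381 CPM in telmisartan macrophage-like cells (log2 ratio 0.30, 0.26 to 0.34), which is also the list's median. The enzymes of the list that can form angiotensin II beside Ace were scarcely counted. In the same class the mast cell chymases Cma1 and Mcpt4 had 2 UMIs and 1 UMI, and Ctsg, cathepsin G, had 2. A further 25 Ctsg UMIs lay in 2 T-like cells.

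Both type 1 receptor transcripts were at the edge of detection in these leukocytes. Agtr1a (chromosome 13, 30336441 to 30382867, plus strand) had 18 UMIs in 18 of 8969 kept cells, and Agtr1b (chromosome 3, 20314473 to 20367177, minus strand) had 8 UMIs in 8 cells. No cell had UMIs of both, and 26 cells had a UMI of either. Agtr1a was found in 17 macrophage-like cells (0.211%, 0.123% to 0.338%; 0.256 CPM, 0.149 to 0.409) and in 1 dendritic-like cell (0.151%). All 8 cells with Agtr1b were macrophage-like (0.0994%, 0.0429% to 0.196%; 0.120 CPM, 0.0519 to 0.237). T-like cells had 0 UMIs of both in 185 cells, which allows up to 1.62%, and neutrophil-like cells 0 in 72. Since T-like cells (median 3286 UMIs) were shallower than macrophage-like cells (median 7561 UMIs), and since the share of macrophage-like cells with Cd3e was 0.857%, the receptor shares lie below what the T-like zeros allow and below the share that an unrelated T cell gene reaches, and they cannot be told apart from background.

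The cells with a receptor UMI were deep ones. Their median depth was 10749 UMIs for Agtr1a against 7349 UMIs in the other cells, and 12506.5 against 7362 UMIs for Agtr1b. Macrophage markers stood at 20784 CPM (20168 to 21415) in cells with Agtr1a. The others, of all classes, had 17377 CPM, and macrophage-like cells as a whole had 18623 CPM. The endothelial list, 3 of 4 genes detected, had 14 UMIs in the Agtr1a cells, 67.6 CPM (37.0 to 113) against 25.7 CPM. In the Agtr1a cells T cell, pericyte and epithelial markers had 0 UMIs. The share of Pecam1, counted in 808 macrophage-like cells (1237 UMIs), in the endothelial sum was not tested here either. In the Agtr1b cells macrophage markers stood at 20865 CPM (19959 to 21802), while the endothelial list and the T cell list had 1 UMI each, 10.5 CPM (0.265 to 58.3), against 25.9 and 65.6 CPM in the others. The part of these markers, in cells that had been sorted as CD45+ leukocytes, was not tested. By subcluster Agtr1a was seen in 7 cells of subcluster 2, 5 of subcluster 3, 3 of subcluster 1 and 1 each of subclusters 6 and 7, with all neighbouring intervals overlapping. Agtr1b was seen in 3 cells of subcluster 2, 2 each of subclusters 3 and 6 and 1 of subcluster 7. In the shallower subclusters 4 and 5 both receptors had 0 UMIs in 1123 and 979 cells, which allows up to 0.267% and 0.306%.

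In macrophage-like cells Agtr1a had 12 control and 5 telmisartan UMIs, 0.315 and 0.176 CPM (log2 ratio −0.84, −2.69 to 0.77). Agtr1b had 5 and 3 UMIs, 0.131 and 0.106 CPM (−0.31, −3.00 to 2.05). Both intervals span ratios well above and below 1, so no difference in the transcript of the drug's target was detectable at this depth.

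Reads from stretches that the paralogs share cannot be assigned to either, so the split of these UMIs is uncertain to that extent. The coding parts are each 1077 bases long and 978 bases (90.8%) are identical, whereas after the coding part 65.5% of 799 aligned bases are. Of 2150 windows of 50 bases in the longest Agtr1a transcript, 33 (1.53%) also occur in Agtr1b, 0 of them after the coding part, and the longest identical run has 66 bases. Agtr1a also has a sense-intronic gene, Gm48161, within its span, which was not in the count table, and intronic reads were counted. The last 60 coding bases (positions 1018 to 1077, GENCODE M21 transcripts) are shown as an example of how the coding parts differ; capitals mark the 10 bases that differ between the paralogs.
Agtr1a: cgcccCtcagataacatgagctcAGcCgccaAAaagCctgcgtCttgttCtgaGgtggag
Agtr1b: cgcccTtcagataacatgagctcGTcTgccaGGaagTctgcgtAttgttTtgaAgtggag

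Agtr2 (chromosome X, 21484544 to 21489164, plus strand) had 1 UMI in 1 telmisartan macrophage-like cell of the mitotic subcluster 6. That is 0.0124% (0.000315% to 0.0692%) of macrophage-like cells. Dendritic-like cells had 0 in 664, which allows up to 0.452%. Of the 10 listed receptors 2 (Lnpep and Atp6ap2) had 100 UMIs, with a median log2 ratio of −0.26. The angiotensin-(1-7) receptor Mas1 had 19 UMIs, 10 of them control, the mineralocorticoid receptor Nr3c2 had 76 UMIs, the kinin receptor Bdkrb2 had 42 UMIs and Bdkrb1 had 0.

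Lnpep was counted in all 4 classes and was lower in the telmisartan pool in macrophage-like cells. The gene lies on chromosome 17 at 17521410 to 17625050 (minus strand) and encodes insulin-regulated aminopeptidase, which sits in endosomes, binds angiotensin IV and trims peptides for MHC class I in dendritic cells. The gene Gm49784 lies within its span on the same strand and was not in the count table, so reads from it and from Lnpep cannot be told apart. Over all kept cells it had 12397 UMIs in 5247 cells. With both groups together T-like cells had 285 CPM (251 to 323), followed by neutrophil-like cells at 236 CPM (164 to 330), dendritic-like cells at 197 CPM (185 to 210) and macrophage-like cells at 167 CPM (164 to 170). The macrophage-like interval lay apart from its neighbour and the other neighbouring pairs overlapped. In telmisartan the order of T-like and neutrophil-like cells was the other way round (245 and 275 CPM, overlapping). Macrophage-like cells were lowest in each group on its own, but in control their interval overlapped that of dendritic-like cells (188 and 200 CPM). The T-like level was 170% of the macrophage-like level, while their macrophage markers stood at 27.2%. Thinned to 1000 UMIs, 22.2% (16.2% to 29.2%) of T-like and 14.5% (13.8% to 15.3%) of macrophage-like cells had a UMI. Unthinned, the shares were 57.3% and 58.7%.

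Because the groups differ in Lnpep and in make-up, its macrophage subclusters are ordered within each group. In control the shallow subcluster 4 came first at 237 CPM (211 to 265), followed by subclusters 2, 5, 1 and 7 at 215, 200, 187 and 178 CPM, and subclusters 3 and 6 came last at 160 CPM (151 to 169) and 154 CPM (144 to 165). In telmisartan the order was subcluster 5 at 171 CPM (155 to 187), then 4, 2, 3 and 1 at 163, 159, 137 and 135 CPM, then 6 at 119 CPM (108 to 130) and 7 at 102 CPM (84.4 to 123). Subclusters 2, 4 and 5 were thus the highest 3 in both groups, with overlapping neighbours, while the lowest differed. With both groups together subcluster 2 came first at 205 CPM and subcluster 6 last at 139 CPM, with 1280 control and 336 telmisartan cells in subcluster 2. Among control T-like cells the CD8 subcluster 2 had 406 CPM (237 to 650), the Foxp3 subcluster 3 had 320 CPM (246 to 408) and the cytotoxic subcluster 1 had 317 CPM (243 to 406), all overlapping. In telmisartan the Foxp3 subcluster, at 129 CPM (76.5 to 204, 18 UMIs), lay below the CD8 subcluster at 337 CPM (228 to 482) and the cytotoxic subcluster at 281 CPM (216 to 359).

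**Figure D1:**
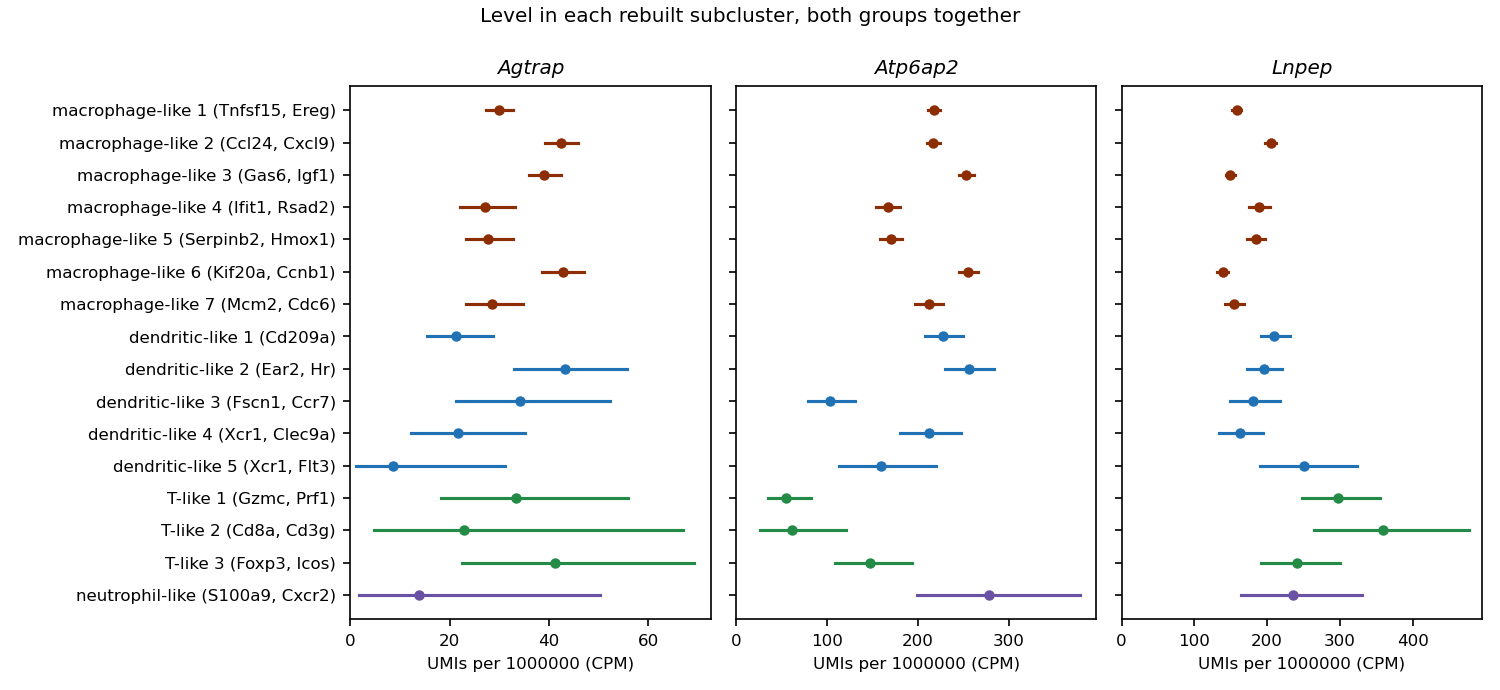
Level of Agtrap, Atp6ap2 and Lnpep (UMIs per 1000000, CPM; x axis) in the 16 rebuilt clusters (rows, with leading genes), both groups together. Points are summed counts and bars exact 95% Poisson intervals; Atp6ap2 is low in T-like 1 at 54.8 CPM, where Lnpep is at 298 CPM.

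In macrophage-like cells Lnpep had 7168 control UMIs (188 CPM, 184 to 192) and 3958 telmisartan UMIs (140 CPM, 135 to 144). The level was lower in the telmisartan pool, with a log2 ratio of −0.43 (−0.49 to −0.37). Only 5.84% of the 11073 genes had a lower ratio. It was lower in 7 of 7 subclusters with every interval below 0, from −0.23 (−0.35 to −0.10) in subcluster 3 and −0.23 (−0.42 to −0.04) in subcluster 5 to −0.80 (−1.11 to −0.50) in subcluster 7. With the subclusters weighted alike in both groups the ratio was −0.41, and without the shallow subcluster 4 it was −0.44, both chosen after seeing the data.

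The depth gap between the pools moves with this result. The share of macrophage-like cells with an Lnpep UMI was 66.5% in control and 50.8% in telmisartan, at median depths of 8977 and 6463 UMIs. After thinning to 1000 UMIs, which left out 45 control and 72 telmisartan cells, the shares were 16.3% (15.2% to 17.5%) and 12.7% (11.7% to 13.8%), and the log2 ratio of the thinned counts was −0.41 (−0.57 to −0.25). The shares and the ratio each come from 1 random draw, and the ratio of the means over all possible draws, added after seeing the data, was −0.39.

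Of the 3 members with at least 100 UMIs in macrophage-like cells, 0 lay past 1.5-fold, beside 529 of 11073 genes past it upward (4.78%) and 247 downward (2.23%). The Lnpep ratio is 0.743-fold, short of that limit. With UMIs per cell left unscaled, Lnpep at −0.84 and Agtrap at −0.71 lay past it, on a scale where 28.9% of all genes lay past it lower and 1.30% higher and the median of all genes was −0.45. Relative to the median of all genes both ratios are the same on either scale by construction, because the change of scale shifts every log2 ratio by the same constant. With a minimum of 20 UMIs, 1 of 4 members lay past 1.5-fold, Ace on the lower side with an interval that includes 0, beside 9.05% of 14505 genes higher and 4.49% lower.

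Outside macrophages the Lnpep ratio varied. In T-like cells it was −0.41 (−0.78 to −0.05; 143 and 111 UMIs), short of 1.5-fold, beside 8.83% of 1596 genes past it higher and 7.83% lower, with subcluster 1 at −0.17 (−0.70 to 0.36). At a tag share of at least 90% the class ratio was −0.65, past 1.5-fold, beside 5.50% of genes lower and 6.89% higher, and with at most 10% mitochondrial UMIs it was −0.24, both chosen for this class after seeing the data. The Foxp3 subcluster 3 had 64 control UMIs in 25 cells and 18 telmisartan UMIs in 21 cells (−1.31, −2.15 to −0.54). Subcluster 3 made up 34.7% of control and 18.6% of telmisartan T-like cells, and its part in the class value was not tested. In dendritic-like cells the ratio was −0.64 (−1.05 to −0.24) in subcluster 2 and 0.64 (0.08 to 1.21) in the mature subcluster 3, so the class value of −0.05 (−0.24 to 0.14) joins opposite directions, and without subcluster 2 it was 0.14. Subclusters 1, 4 and 5 gave 0.05, 0.32 and −0.75 (the last from 35 and 23 UMIs), with intervals that included 0.

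**Figure D2:**
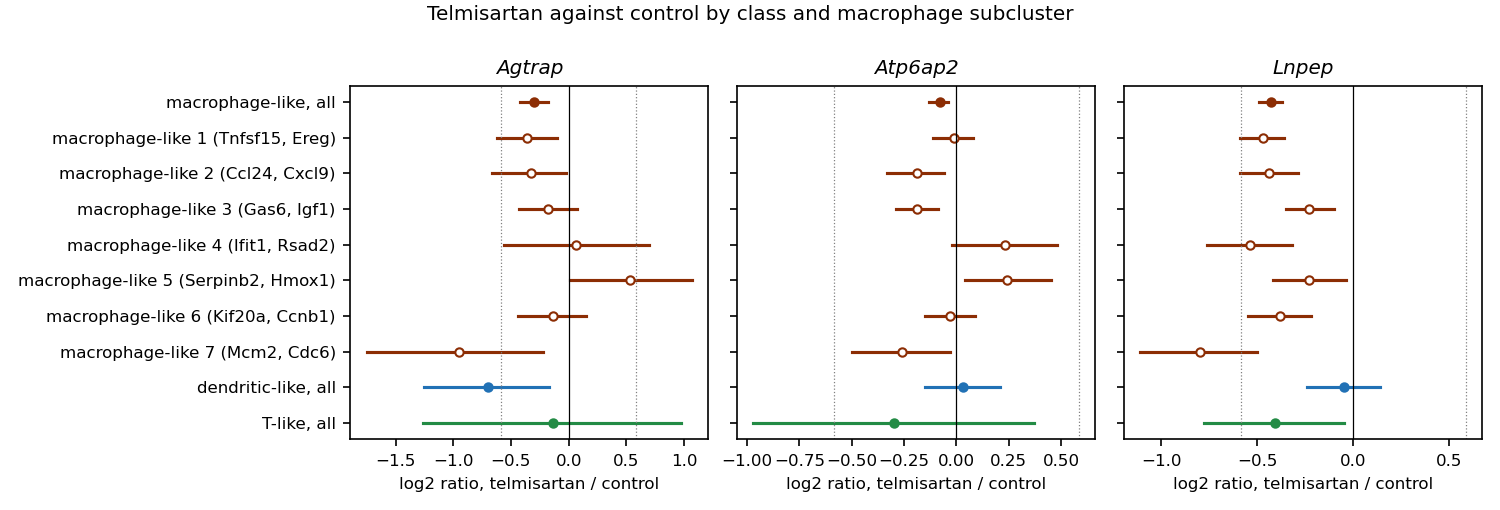
Log2 ratio of telmisartan over control (x axis) for Agtrap, Atp6ap2 and Lnpep in macrophage-like cells, their 7 subclusters, and dendritic-like and T-like cells (rows). Points are ratios of CPM from summed counts, bars exact 95% intervals for counting error, dotted lines 1.5-fold; Lnpep is below 0 in 7 of 7 macrophage subclusters.

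Lnpep belongs to the 11 listed peptidases that trim or degrade angiotensins. Of these 8 had at least 100 UMIs, 1 higher and 7 lower in the telmisartan pool, with a median log2 ratio of −0.15, where 57.1% of all genes were lower. Of the 8, 0 lay past 1.5-fold, beside 4.78% of all genes past it higher and 2.23% lower. Among the 7 lower genes Dpp3 (−0.11, −0.22 to 0.01) and Rnpep (−0.04, −0.11 to 0.03) had intervals that included 0. Anpep, aminopeptidase N, was the most abundant in control (203 CPM against 143 CPM; −0.50, −0.56 to −0.45), and it lay lowest among the 8. Thop1, thimet oligopeptidase, was the 1 higher gene at 0.48 (0.17 to 0.79). Mme had 21 UMIs and Enpep 11.

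The 5 genes of endosomal peptide trimming set beside Lnpep had a median log2 ratio of −0.03 and a log2 ratio of their sum of −0.27 (−0.30 to −0.23), with 1 of 5 past 1.5-fold lower and 0 higher, beside 2.23% and 4.78% of all genes. That gene was Erap1, the aminopeptidase of the endoplasmic reticulum, at 63.2 CPM in control and 40.3 CPM in telmisartan (−0.65, −0.75 to −0.55). Rab14, a GTPase of Lnpep-bearing endosomes and the most abundant of the list, stood at 245 and 188 CPM (−0.38, −0.43 to −0.33). The peptide transporter genes Tap1 and Tap2 were at −0.02 and −0.03. With both groups pooled, the genes whose level over 16 clusters was most like that of Lnpep were Capn1 (0.92), Ptprc (0.91), Lats1 (0.91), Eif4a2 (0.90) and Zfp942 (0.90).

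**Figure D3:**
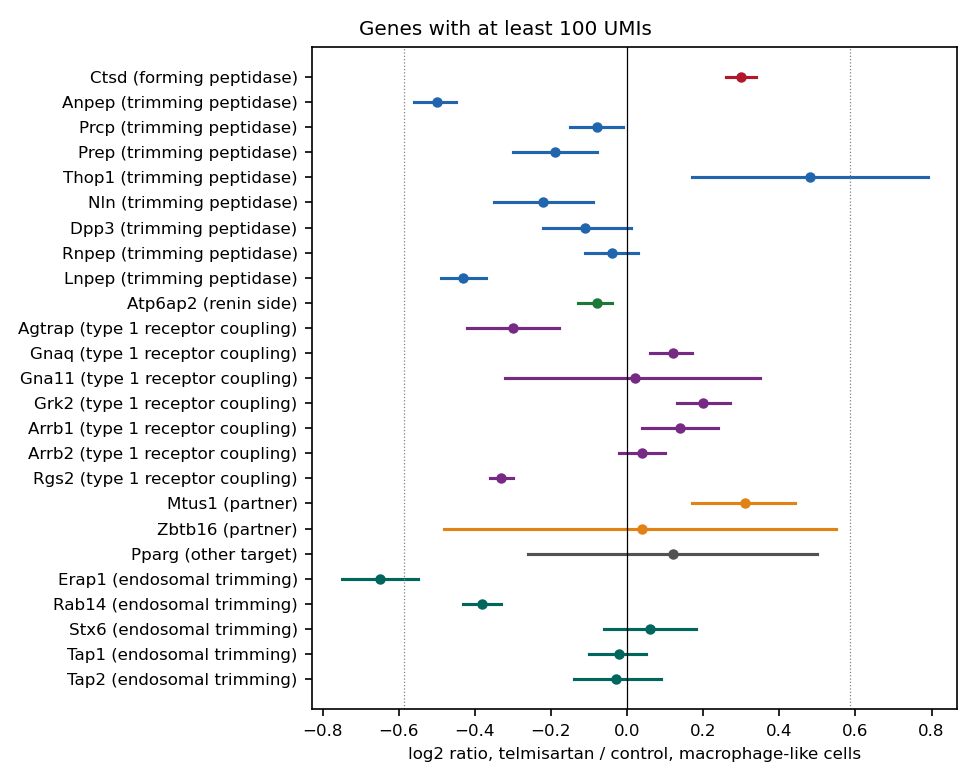
Log2 ratio of telmisartan over control in macrophage-like cells (x axis) for the genes of the angiotensin pathway and endosomal trimming lists with at least 100 UMIs (rows, with role). Bars are exact 95% intervals for counting error and dotted lines 1.5-fold; Erap1 at −0.65 is the 1 gene past the dotted line.

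Agtrap, which binds the type 1 receptor and lowers its surface level, had at least 100 UMIs in macrophage-like and dendritic-like cells and 31 in T-like cells. The gene lies on chromosome 4 at 148077061 to 148088031 (minus strand) and had 2574 UMIs in 1849 kept cells. Levels were 36.1 CPM (34.6 to 37.6) in macrophage-like cells, 34.8 CPM (23.7 to 49.4) in T-like cells, 28.5 CPM (24.0 to 33.6) in dendritic-like cells and 13.9 CPM (1.68 to 50.2, 2 UMIs) in neutrophil-like cells, with each neighbouring pair overlapping. The 2 neutrophil-like UMIs, in 2 of 72 cells, cannot be told apart from background. In control the macrophage-like and dendritic-like intervals overlapped (39.2 and 33.9 CPM), and in telmisartan they did not (31.9 and 20.8 CPM). With both groups together, subclusters 6, 2 and 3 (42.8, 42.5 and 39.1 CPM) stood apart from subcluster 1 (27.4 to 32.7 CPM) and from subclusters 7, 5 and 4 (28.6, 27.7 and 27.2 CPM). The same 3 came first in each group on its own, but there the intervals of neighbours overlapped at that step. Among dendritic-like cells subcluster 2 had 43.3 CPM (33.0 to 55.7) and subcluster 1 (Cd209a) 21.3 CPM (15.4 to 28.7). The receptors themselves were scarcely counted in these cells.

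Between the groups Agtrap stood at 39.2 CPM in control macrophage-like cells (1495 UMIs) and 31.9 CPM in telmisartan (904 UMIs), a log2 ratio of −0.30 (−0.42 to −0.18), with 13.8% of genes lower. It was lower in 5 of the 6 subclusters with at least 100 UMIs. Subcluster 4, with 34 control and 65 telmisartan UMIs and so just below that limit, was at 0.06 (−0.56 to 0.70). Subclusters 1, 2 and 7 had intervals below 0, with subcluster 7 at −0.95 (−1.75 to −0.22, from 83 and 19 UMIs), subclusters 3 and 6 were at −0.18 and −0.14 with intervals that included 0, and subcluster 5 was at 0.53 (0.01 to 1.07). In 1 random draw of 1000 UMIs per cell the ratio was −0.06 (−0.42 to 0.30) from 137 and 129 UMIs. The ratio of the means over all possible draws, added after seeing the data, was −0.27, close to the value without thinning. With subclusters weighted alike the ratio was −0.23. In dendritic-like cells 99 control and 43 telmisartan UMIs gave −0.70 (−1.25 to −0.17), and −0.67 without subcluster 2. Of the 3 members with at least 100 UMIs in this class, 1 (Agtrap) lay past 1.5-fold lower and 0 higher, beside 3.34% and 3.69% of 5832 genes. At a tag share of at least 90%, chosen for this class after seeing the data, the Agtrap ratio was −0.55, short of 1.5-fold, beside 4.75% of genes past it lower and 4.93% higher. No dendritic-like subcluster alone had 100 Agtrap UMIs. In T-like cells 16 and 15 UMIs gave −0.14 (−1.26 to 0.97).

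Agtrap is 1 of 7 listed genes that couple or regulate the type 1 receptor. All 7 had at least 100 UMIs, 5 were higher and 2 lower, and the median log2 ratio was 0.04, where 57.1% of all genes were lower. Of the 7, 0 lay past 1.5-fold, beside 4.78% of all genes past it higher and 2.23% lower. The log2 ratio of their sum was −0.14 (−0.16 to −0.11), with 22968 of its 40695 control UMIs from 1 gene. This most abundant gene was Rgs2, which limits signaling by Gq proteins, at 602 CPM in control and 478 CPM in telmisartan (−0.33, −0.36 to −0.30). The Gq subunit gene Gnaq stood at 151 and 164 CPM (0.12, 0.06 to 0.17) and the receptor kinase gene Grk2 at 101 and 116 CPM (0.20, 0.13 to 0.27). Agtrap and Rgs2 were the 2 lower genes. Mtus1 and Zbtb16, listed as partners of the type 2 receptor and the prorenin receptor, had a median of 0.17, with Mtus1 at 0.31 (0.17 to 0.44). Pparg, the nuclear receptor that telmisartan also binds, had 131 control and 106 telmisartan UMIs (0.12, −0.26 to 0.50).

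Over the whole pathway list 20 of 37 genes had at least 100 UMIs in macrophage-like cells, 10 higher and 10 lower, 0 past 1.5-fold, with a median log2 ratio of −0.01. All 11073 genes had a median of −0.05, 57.1% were lower, and 4.78% lay past 1.5-fold higher and 2.23% lower. The log2 ratio of the list's sum was −0.10 (−0.12 to −0.09). The genes whose level over 16 clusters was most like that of Agtrap were Akr1e1 (0.89), Dlg4 (0.89), Pon2 (0.89), Pyroxd1 (0.87) and Tmem184c (0.87).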

How the data were processed

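The authors deposited UMI counts per gene and Sample Tag read counts per cell, made with the BD Rhapsody WTA Analysis Pipeline 1.11 (GRCm38, GENCODE M19, intronic reads included; counting strand not given in the sources used here). Members and lists were chosen with earlier results of these data known. Cells needed 75% of at least 10 tag reads, 150 to 5000 genes and at most 20% mitochondrial UMIs. Scrublet (scanpy 1.11.5) marked 0 cells by its own threshold, so the 942 highest-scoring of 9911 cells were removed, the rate tag multiplets predict (9.51%). Clusters came from Seurat 5.3.0 (R 4.3.3; resolution 0.5, macrophages 0.45). A class other than macrophage needed 3 markers at 4 times the level elsewhere. Counts were summed by class and tag; ratio intervals are conditional binomial, shares Clopper-Pearson, levels Poisson. Named genes were the members, list genes past 1.5-fold, most abundant or undetected, the 5 most correlated, and examples chosen after seeing values; some genes under this rule are not reported here. Methods were tested on simulated data. Alternatives varied tag share, limits, doublets, resolution, scaling (edgeR 4.0.16) and depth. Positions come from GENCODE M21.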

Additional observations from a re-analysis of the deposited data

Results flagged for a closer look

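For 3 genes the ratio of telmisartan to control lay above 0 in one cell cluster and below 0 in another, with intervals that exclude 0. The differences between clusters were not tested. Agtrap had a log2 ratio of 0.53 in macrophage-like subcluster 5 and −0.95 in subcluster 7. Atp6ap2 had 0.24 in subcluster 5 and −0.26 in subcluster 7. For Lnpep the pair was dendritic-like subcluster 3 at 0.64 and macrophage-like subcluster 7 at −0.80. Median depth was 3948 UMIs in macrophage-like subcluster 5 and 13760 UMIs in subcluster 7, and the part of depth was not tested.

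Outside the comparison, the 10 Sample Tags not used for either group held 6387 of 8041345 tag reads, or 0.0794%.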

How the results depend on the processing

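Direction held for Lnpep, Agtrap, Atp6ap2, Ace and Agtr1a in macrophage-like cells under each alternative that gave a value: Lnpep ran from −0.84 to −0.39, Agtrap from −0.71 to −0.06, Atp6ap2 from −0.49 to −0.05, Ace from −1.27 to −0.39 and Agtr1a from −1.25 to −0.45. Agtr1b ran from −1.02 to 0.29. With UMIs per cell left unscaled, the ratios were −0.71 for Agtrap, −0.49 for Atp6ap2 and −0.84 for Lnpep. That scale moved the median of all genes from −0.05 to −0.45. Relative to the median the values are −0.25, −0.04 and −0.38 on both scales by construction, since the change shifts every log2 ratio by the same constant. In 1 random thinning to 1000 UMIs Agtrap was at −0.06, and at −0.27 as the mean over all possible thinnings. The lower fold threshold counted 1 of 3 members (Lnpep, lower), beside 12.2% of all genes higher and 11.7% lower, and a minimum of 20 UMIs counted 1 (Ace), against 0.

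In 1 random thinning to 500 UMIs, macrophage-like levels were 0 CPM for Agtr1a, Agtr1b and Agtr2, 29.1 for Agtrap, 1.49 for Ace, 209 for Atp6ap2 and 159 for Lnpep. Dendritic-like levels were 0 for Agtr1a and Ace and 160 for Atp6ap2, T-like Atp6ap2 was 119, and neutrophil-like Agtrap was 0. The means over all possible thinnings, added after seeing the data, were 0.225, 0.104, 0.0168, 32.4, 2.00, 200 and 162 CPM for the 7 macrophage-like values in that order, then 0.114, 0.770 and 194, then 73.5, then 14.8, and 325 for T-like Lnpep. The zeros and the 160 and 119 are thus values of single draws. Another draw gave Atp6ap2 in 83 of 664 dendritic-like and 11 of 185 T-like cells, and Agtr1a in 1 macrophage-like cell. In that draw 0 cells again had macrophage-like Agtr1b or Agtr2, dendritic-like Agtr1a or Ace, or neutrophil-like Agtrap. Thinning also weights cells alike. Without doublet removal T-like levels were 115 CPM for Atp6ap2 and 236 CPM for Lnpep, and the cause was not tested. Receptor counts stayed close (Agtr1a 14 to 20 UMIs, Agtr1b 7 to 11).

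No paired analysis was possible because each group was 1 pool, which also leaves no replicate to omit. Pool, tag and treatment cannot be told apart.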

Other observations

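In macrophage-like cells the monocyte lists set beside Ace held genes on both sides of 0, and of all genes 4.78% lay past 1.5-fold higher and 2.23% lower. Of 9 nonclassical monocyte genes 7 had at least 100 UMIs, with a median log2 ratio of 0.12 and a log2 ratio of the sum over all 9 of 0.49 (0.46 to 0.51), where Nr4a1 supplied 18610 of 27865 control and 22281 of 29009 telmisartan UMIs: Nr4a1, the most abundant (488 CPM in control, 786 CPM in telmisartan; 0.69, 0.66 to 0.72), and Treml4 (0.90, 0.45 to 1.36) were past 1.5-fold higher, and the integrin gene Itgal (−0.66, −0.75 to −0.58) past it lower. All 6 classical monocyte genes had at least 100 UMIs, with a median of 0.14 and a log2 ratio of the sum of 0.17 (0.15 to 0.18). Of these genes 2 lay past 1.5-fold higher, Ly6c2 (1.37) and Plac8 (1.28). Vcan was at −0.47 and the most abundant control transcript, Ccr2, at −0.36. Summed, the list stood at 2690 CPM in subcluster 4 and 1437 CPM in the whole class. Subcluster 4 held 9.29% of control and 18.7% of telmisartan macrophage-like cells, and the part of make-up in these ratios was not tested.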
